A study of Mus musculus with 9 samples.

Results

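The transcripts described here were the 4 adult globin genes Hba-a1, Hba-a2, Hbb-bs and Hbb-bt together with Alas2, Slc4a1 and Bpgm, 7 genes in all of the 23238 gene symbols counted. They were picked out by symbol, as the adult globin chains and 3 further genes of the red cell lineage. Their counts were followed in 9 QuantSeq 3ʹ libraries of sorted monocytes from a mouse model of neuromyelitis optica (NMO), an autoimmune disease in which antibodies against the astrocyte water channel aquaporin-4 damage the central nervous system. All mice were female wild-type C57BL/6N animals of 12 weeks, per the study's methods. Nor_Bl_mono were blood monocytes of untreated normal mice. NMO_Bl_mono and NMO_Br_mono were blood and brain monocytes of mice killed on day 1 after a unilateral intrastriatal injection of patient-derived NMO-IgG with human complement. Each group had 3 libraries, each from a pool of 5 mice, sorted as CD45+, CD11b+, P2ry12-, Ly6C+ and Ly6G- cells. No group injected with control IgG was among these libraries, so the injection itself and the NMO-IgG cannot be told apart.

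Haemoglobin carries oxygen as a tetramer of alpha and beta chains, each holding a haem group. Its chains are made mainly in erythroid precursors and reticulocytes. Erythroid cells use Alas2 for the first step of haem synthesis, Slc4a1 (band 3) as the anion exchanger and main membrane protein, and Bpgm to make the phosphoglycerate that lowers oxygen affinity. Globin transcripts are so abundant in reticulocytes that a small share of such cells, or of RNA freed from them, is seen in many blood cell preparations. The preparations also differed. Brain cells came from mice perfused with PBS, were dissociated by enzyme, passed over Percoll and treated with a red cell lysis buffer, whereas blood cells came from a density gradient of mononuclear cells. Tissue and preparation therefore cannot be told apart in any comparison of brain with blood. In these pooled samples fewer erythroid cells, less erythroid RNA per cell and a lower level in the sorted monocytes themselves cannot be told apart either.

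The globins are near-identical pairs, which matters because the authors counted reads that align to several places. In GENCODE M21 on GRCm38 (the mm10 build named in the submitters' processing notes), Hba-a1 lies on the plus strand at chr11:32283511-32284465 and Hba-a2 at chr11:32296489-32297298. Hbb-bt lies on the minus strand at chr7:103812524-103813996 and Hbb-bs at chr7:103826534-103828096. All 4 have 3 exons. The last 75 coding bases before the stop codon, the length of 1 read, are printed here because they hold the only coding difference within each pair. They come from exon 3 of the GENCODE transcripts and are written 5′ to 3′ on the RNA strand, with the base that differs from the other copy in capitals.
Hba-a1: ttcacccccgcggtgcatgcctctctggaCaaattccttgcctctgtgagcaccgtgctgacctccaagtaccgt
Hba-a2: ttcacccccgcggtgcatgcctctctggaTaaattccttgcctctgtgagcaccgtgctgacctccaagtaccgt
Hbb-bs: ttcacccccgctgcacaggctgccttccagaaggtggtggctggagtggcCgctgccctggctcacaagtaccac
Hbb-bt: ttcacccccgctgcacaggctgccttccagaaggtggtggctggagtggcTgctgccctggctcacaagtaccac

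Counted from the first base printed, the alpha copies differ by C30T (Hba-a1 to Hba-a2) and the beta copies by C51T (Hbb-bs to Hbb-bt). The coding sequences differed at 1 of 426 bases in the alpha pair and at 1 of 441 bases in the beta pair. The ends of the transcripts, which 3ʹ libraries read, were another matter. Of the 76 windows of 75 bases in the last 150 bases of Hba-a1, 48 also occurred in Hba-a2, whereas 0 of 76 windows of Hbb-bs occurred in Hbb-bt. In the last 300 bases the shared windows were 151 of 226 for Hba-a1 and 67 of 226 for Hbb-bs. Reads of both pairs can thus fall in sequence that the copies share, less so near the ends of the beta transcripts.

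Of the other genes, Alas2 lies on the plus strand at chrX:150547375-150570638 with 11 exons, Slc4a1 on the minus strand at chr11:102348824-102366203 with 20 exons and Bpgm on the plus strand at chr6:34476207-34505613 with 3 exons.

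Depth was close to even, with 7582571 to 10416076 counts per library. Libraries differed more in the number of genes with a count, from 4567 in NMO_Bl_mono 3 to 11556 in NMO_Bl_mono 1, and NMO_Br_mono 2 had 6473. Levels are given as CPM, the counts of a gene scaled to a common library size after TMM normalization, in the order of libraries 1, 2 and 3. The floor used for genes at 0 was 3 counts per library, or 0.271 to 0.429 CPM. All 12 monocyte markers had counts in every group, and their summed level of 4132 to 7996 CPM in NMO_Br_mono covered that of the blood groups. Single markers moved both ways. Against NMO_Bl_mono, every brain library was higher in 6 of the 12 (6.3% of all genes) and lower in 3 (6.05%). Markers of natural killer cells summed to 2228 to 3632 CPM in blood, and the purity of the sorted cells was not tested.

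The globins together were prominent in blood monocyte libraries and scarce in brain monocyte libraries. Their summed level was 4246, 893 and 1650 CPM in the libraries of normal blood. It was 5367, 1625 and 2068 CPM in NMO_Bl_mono. In NMO_Br_mono the sum was 399.9, 1.04 and 58.2 CPM, and every brain library lay below every blood library. As a share of all counts this was 0.0862% to 0.446% in blood, and 0.0341%, 0.000113% and 0.00616% in the brain libraries. The mean sum was 19.7-fold higher in NMO_Bl_mono and 14.8-fold higher in Nor_Bl_mono than in NMO_Br_mono. Brain libraries also differed from each other by more than the blood libraries did. The highest was 384 times the lowest, against 4.75 times in Nor_Bl_mono and 3.30 times in NMO_Bl_mono.

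Hba-a1, an adult alpha chain gene, had more counts than any other member in each of the 9 libraries except NMO_Bl_mono 3. It stood at 2972, 481 and 1004 CPM in Nor_Bl_mono, which is 1486 ± 1313 (SD, n = 3). NMO_Bl_mono had 3476, 1015 and 941 CPM (1811 ± 1443, SD, n = 3). NMO_Br_mono had 336, 0.662 and 53.4 CPM (130 ± 180, SD, n = 3). The brain libraries did not overlap with the blood libraries, although the highest of them came near the lowest Nor_Bl_mono library. Blood libraries of normal and NMO mice overlapped over most of their range.

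Hba-a2, the second alpha chain gene, encodes the same protein by the coding sequences used here. It was counted at a small part of the level of its copy. It stood at 32.2, 0 and 0 CPM in Nor_Bl_mono and at 59.1, 29.6 and 0 CPM in NMO_Bl_mono. No count was found in any NMO_Br_mono library. Per 1000 counts of Hba-a1 it had 10.8, 0 and 0 counts in Nor_Bl_mono and 17.0, 29.2 and 0 in NMO_Bl_mono. Since both copies share read-length sequence at their ends, the split between them is uncertain and their sum is the safer quantity.

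Hbb-bs, an adult beta chain gene of the haplotype that C57BL mice carry, showed the widest separation between blood and brain among members with brain counts. It stood at 975, 294 and 473 CPM in Nor_Bl_mono (581 ± 353, SD, n = 3) and at 1409, 397 and 1046 CPM in NMO_Bl_mono (950 ± 513, SD, n = 3). NMO_Br_mono had 26.9, 0.189 and 4.75 CPM (10.6 ± 14.3, SD, n = 3). The lowest blood library was thus far above the highest brain library. Raw counts make the same point, with 2802 to 11570 counts in the blood libraries and 239, 2 and 48 in the brain libraries.

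Hbb-bt, the other adult beta chain gene of that haplotype, stood lower. It had 267, 118 and 172 CPM in Nor_Bl_mono (186 ± 75.6, SD, n = 3) and 423, 184 and 81.7 CPM in NMO_Bl_mono (230 ± 175, SD, n = 3). NMO_Br_mono had 37.4, 0.189 and 0 CPM, or 333, 2 and 0 counts, so a single brain library held nearly all of its signal. Groups of blood and brain did not overlap.

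The tables also list Hbb-b1 and Hbb-b2, names of the beta chain genes in another haplotype. Hbb-b1 had 95.0% to 100% of the counts of Hbb-bs in each library, and Hbb-b2 had 97.2% to 100% of those of Hbb-bt wherever Hbb-bt had a count. The beta chains therefore appear under 4 symbols with nearly the same counts for each pair, and Hbb-b1 and Hbb-b2 are not a second measurement. Sums in the text use Hbb-bs and Hbb-bt alone.

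The 3 other erythroid genes were low in blood and at 0 in every brain library. Bpgm was the steadiest of them, with 6.29, 26.1 and 18.5 CPM in Nor_Bl_mono (16.9 ± 9.98, SD, n = 3) and 18.8, 5.30 and 1.45 CPM in NMO_Bl_mono (8.52 ± 9.11, SD, n = 3). It had counts in all 6 blood libraries and in none of the brain libraries, which is at least 27.8-fold higher in NMO_Bl_mono and at least 55.4-fold higher in Nor_Bl_mono against the floor of 3 counts per library. Bpgm is also expressed at a low level outside the red cell lineage.

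Alas2 stood at 6.87, 0.315 and 0 CPM in Nor_Bl_mono and at 5.57, 7.03 and 0 CPM in NMO_Bl_mono, from 48, 3, 0, 40, 65 and 0 counts. Slc4a1 had counts in 2 of 9 libraries, 82 in NMO_Bl_mono 1 and 70 in NMO_Bl_mono 2, or 11.4 and 7.57 CPM. It was at 0 in all Nor_Bl_mono libraries. Both genes overlapped between blood and brain because some blood libraries were at 0 too.

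**Figure D1:**
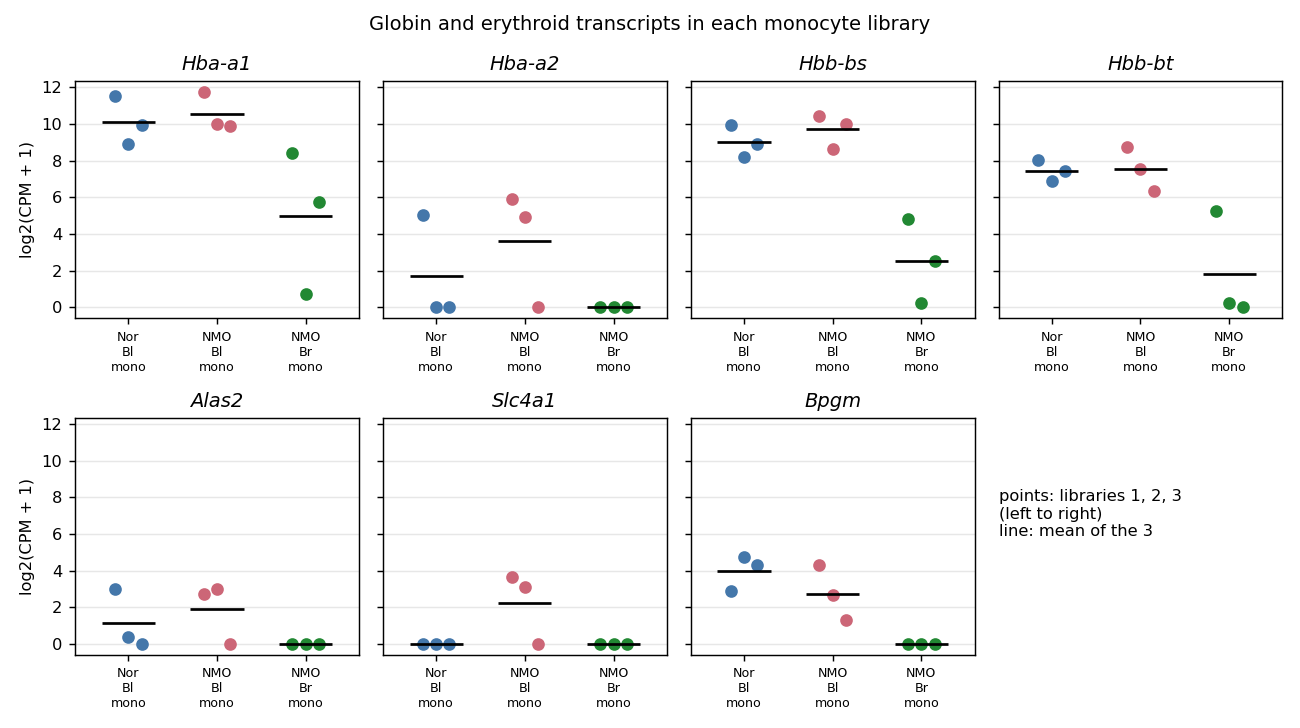
Level of each of the 7 genes in the 9 libraries as log2(CPM + 1), with 1 point per library (1, 2 and 3 from left to right within a group) and a line at the mean of the 3. The green brain points of Hba-a1, Hbb-bs, Hbb-bt and Bpgm lie below all blood points, and Hba-a2, Alas2, Slc4a1 and Bpgm are at 0 in all 3 brain libraries.

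The first comparison asked how brain monocytes differed from blood monocytes of NMO mice. All members were lower in NMO_Br_mono, and Hbb-bs by the most among those with counts in both. Of the 6 members that passed the count filter, 0 were lower at an adjusted p under 0.05, against 0.228% of the 10107 genes tested. At the study's own threshold, an unadjusted p under 0.05 with a fold change of 1.2, 5 of 6 were lower, against 3.84% of all genes. In 4 of 6 every brain library was below every blood library, against 6.05% of all genes. Slc4a1 did not pass the filter. Hba-a2, Alas2 and Bpgm passed it on their blood counts alone and so had to be lower in brain, and these counts are no measure of the members as a set.

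In the same comparison, the mean of Hbb-bs was 89.6-fold higher in NMO_Bl_mono than in NMO_Br_mono, with a fitted log2 fold change of -6.49 (SE 1.24) and an adjusted p of 0.0502 by edgeR's quasi-likelihood test. Its duplicate entry Hbb-b1 gave -6.55 with an adjusted p of 0.0489 by edgeR, so the same reads fell on both sides of the threshold. Hba-a1 was 13.9-fold higher in NMO_Bl_mono by its mean, with a fitted log2 fold change of -3.80 (SE 1.30, edgeR adjusted p 0.717). Hbb-bt was 18.3-fold higher, with -4.19 (SE 1.66, edgeR adjusted p 0.802).

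For members at 0 in brain only bounds can be given. Against the floor, NMO_Bl_mono was at least 96.6-fold higher for Hba-a2, at least 13.7-fold higher for Alas2 and at least 20.7-fold higher for Slc4a1. For these 3 genes the bounds rest on 2 of the 3 NMO_Bl_mono libraries, because NMO_Bl_mono 3 was at 0. The exact two-sided permutation test of log2(CPM + 1) gave p = 0.1 for Hba-a1, Hbb-bs, Hbb-bt and Bpgm, the smallest that 3 against 3 libraries allow (0.263 after Benjamini-Hochberg adjustment over 21 such tests), and p = 0.4 for Hba-a2, Alas2 and Slc4a1.

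Single libraries moved the fitted values of this comparison. Without NMO_Br_mono 1, which held 3556 of the brain globin counts, the log2 fold change became -6.07 for Hba-a1, -8.59 for Hbb-bs and -11.04 for Hbb-bt, and 2 members, Hbb-bs and Hbb-bt, passed the adjusted threshold. Without NMO_Bl_mono 1, the blood library with the most globin, it was -2.91 for Hba-a1. Hbb-bs stayed between -8.59 and -5.89 whichever library was left out, with edgeR adjusted p from 0.00883 to 0.157. It was called without Nor_Bl_mono 1 (0.0199), Nor_Bl_mono 2 (0.0139), NMO_Bl_mono 2 (0.0210) or NMO_Br_mono 2 (0.0262). The count of members past the unadjusted threshold was 2 without NMO_Bl_mono 1, 3 without NMO_Br_mono 1 and 3 without NMO_Br_mono 3.

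Against blood monocytes of normal mice the picture was alike, with the brain libraries being the same as above and hence no independent support. No member of 6 was lower at an adjusted p under 0.05 (0.218% of all genes), 5 were lower at the unadjusted threshold (4.07%), and in 4 every brain library was lower (9.37%). Hbb-bs was 54.8-fold higher in Nor_Bl_mono (log2 fold change -5.78, SE 1.2, edgeR adjusted p 0.0781). The ratio of means was 11.4 for Hba-a1 and 14.8 for Hbb-bt. Their fitted log2 fold changes were -3.52 (SE 1.29) and -3.89 (SE 1.64), each with an edgeR adjusted p of 0.708. Hba-a2 was at least 35.1-fold and Alas2 at least 7.82-fold higher in Nor_Bl_mono, and each of these bounds rests mainly on 1 library, Nor_Bl_mono 1. Hbb-bs was called without Nor_Bl_mono 2 (edgeR adjusted p 0.0300), NMO_Bl_mono 2 (0.0353), NMO_Br_mono 1 (0.0132) or NMO_Br_mono 2 (0.0420), and the fitted value of Hbb-bt was -10.73 without NMO_Br_mono 1. Without NMO_Br_mono 2, 3 members were past the unadjusted threshold.

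With the 2 blood groups pooled against brain, Hbb-bs passed the adjusted threshold. It had a log2 fold change of -6.13 (SE 1.19, edgeR adjusted p 0.0397) and was the single member called of 6, against 0.297% of all genes. The call was lost without Nor_Bl_mono 3 (edgeR adjusted p 0.0728) and without NMO_Br_mono 3 (0.140). It was also lost when Hbb-bs and Hbb-bt were summed to 1 entry (log2 fold change -5.36, edgeR adjusted p 0.0919). Without NMO_Br_mono 1, Hbb-bt was called too, and without NMO_Bl_mono 1 the count past the unadjusted threshold was 3. At the unadjusted threshold 5 of 6 members were lower (4.26%), and in 4 of 6 every brain library lay below all 6 blood libraries (3.13%). In every comparison of brain with blood, Hba-a2, Alas2 and Bpgm were at 0 in brain and so could only be lower. The exact two-sided permutation test of 3 against 6 libraries gave p = 0.0119 for Hba-a1, Hbb-bs, Hbb-bt and Bpgm, the smallest it allows (0.0208 after Benjamini-Hochberg adjustment over the 7 members). The members were chosen with earlier results of these data known, so these p-values are no independent support. The same exact permutation test gave p = 0.393 for Hba-a2, 0.167 for Alas2 and 0.5 for Slc4a1.

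**Figure D2:**
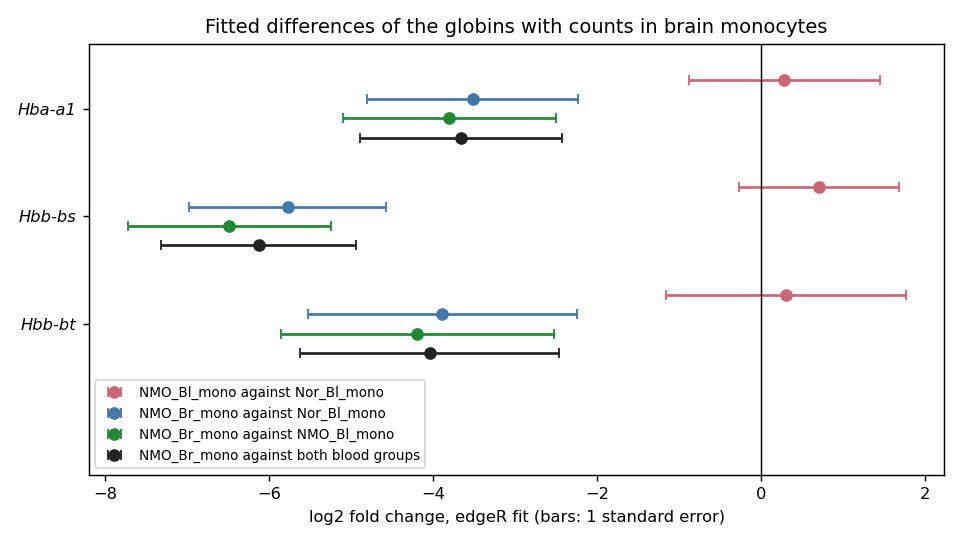
Fitted log2 fold changes from edgeR, with bars of 1 standard error, for the 3 globins with counts in brain monocytes and the 4 comparisons. The 3 comparisons of brain with blood lie between -6.49 and -3.52, and those of NMO with normal blood lie within 1 standard error of 0.

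Blood monocytes of NMO mice were compared with those of normal mice to see whether the lesion went along with a change in the circulating cells. No member differed beyond the spread between libraries. Of 6 members tested, 0 were higher (0% of all genes) or lower (0%) at an adjusted p under 0.05, 0 were higher (0.465%) or lower (0.247%) at the unadjusted threshold, and in 0 was every NMO library higher (2.34%) or lower (4.45%). The log2 fold changes were 0.29 (SE 1.17) for Hba-a1, 0.71 (SE 0.98) for Hbb-bs and 0.31 (SE 1.46) for Hbb-bt, each with an edgeR adjusted p of 1.

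The means leaned the same way in 5 members, being 1.22-fold higher in NMO_Bl_mono for Hba-a1, 2.76-fold for Hba-a2, 1.64-fold for Hbb-bs, 1.24-fold for Hbb-bt and 1.76-fold for Alas2. Bpgm leaned the other way, 1.99-fold higher in Nor_Bl_mono. Slc4a1 was at 0 in Nor_Bl_mono and at least 18.1-fold higher in NMO_Bl_mono, from 2 of 3 libraries (exact permutation p = 0.4). All of these groups overlapped. For Hba-a1 and Hbb-bt the sign of the fitted value turned without NMO_Bl_mono 1, to -0.61 and -0.48, and that of Hba-a1 also without Nor_Bl_mono 2, to -0.13. Without Nor_Bl_mono 1, Hba-a2 was at 0 in the normal libraries that remained, and the fitted log2 fold change of Alas2 went from 0.81 to 4.63 with 3 normal counts left. That of Bpgm went from -0.99 to -2.33 without NMO_Bl_mono 1.

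The order of group means was the same for Hba-a1, Hba-a2, Hbb-bs, Hbb-bt and Alas2, with NMO_Bl_mono first, Nor_Bl_mono second and NMO_Br_mono last. The 2 blood groups, neighbours in that order, did not differ beyond their spread in any of them. For Bpgm the order of the blood groups was turned around, and they overlapped as well.

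Ratios between members within a library do not depend on how the library was scaled, though counts of different genes are not levels per length, so only the change of a ratio across libraries can be read. Beta counts (Hbb-bs and Hbb-bt) per alpha count (Hba-a1 and Hba-a2) were 0.414, 0.856 and 0.643 in Nor_Bl_mono and 0.518, 0.556 and 1.2 in NMO_Bl_mono. In NMO_Br_mono they were 0.192 and 0.0889 in libraries 1 and 3, both below every blood library. NMO_Br_mono 2 gave 0.571 from 11 globin counts in all, which is too few to place it. Brain libraries thus held less beta than alpha globin relative to blood in the 2 libraries with enough counts.

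The share of Hbb-bt in the beta counts was 21.5%, 28.5% and 26.7% in Nor_Bl_mono and 23.1% and 31.7% in NMO_Bl_mono 1 and 2. It was 7.25% in NMO_Bl_mono 3, the library with the fewest genes. In brain it was 58.2% of 572 counts in library 1 and 0% of 48 counts in library 3, on opposite sides of the blood range. Reads are not independent molecules and the beta copies share part of their sequence, so these shares of single libraries are given as values without a test.

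The other members did not keep a steady proportion to the globins either. Bpgm had 1.48, 29.2 and 11.2 counts per 1000 globin counts in Nor_Bl_mono and 3.50, 3.26 and 0.699 in NMO_Bl_mono. Alas2 had 1.62, 0.353 and 0 in Nor_Bl_mono, then 1.04, 4.33 and 0 in NMO_Bl_mono. At the lowest to the highest of the blood ratios, the 3556 globin counts of NMO_Br_mono 1 would go with 2.49 to 104 counts of Bpgm, 0 to 15.4 of Alas2 and 0 to 16.6 of Slc4a1. The counts found were 0 for all 3. The ranges of Alas2 and Slc4a1 start at 0 because some blood libraries had no counts of them, so they set no limit. That of Bpgm began at 2.49 counts, under the floor of 3 counts, and whether its 0 departs from the range was not tested. For NMO_Br_mono 2 and 3 the ranges of Bpgm were 0.00769 to 0.321 and 0.411 to 17.2 counts.

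**Figure D3:**
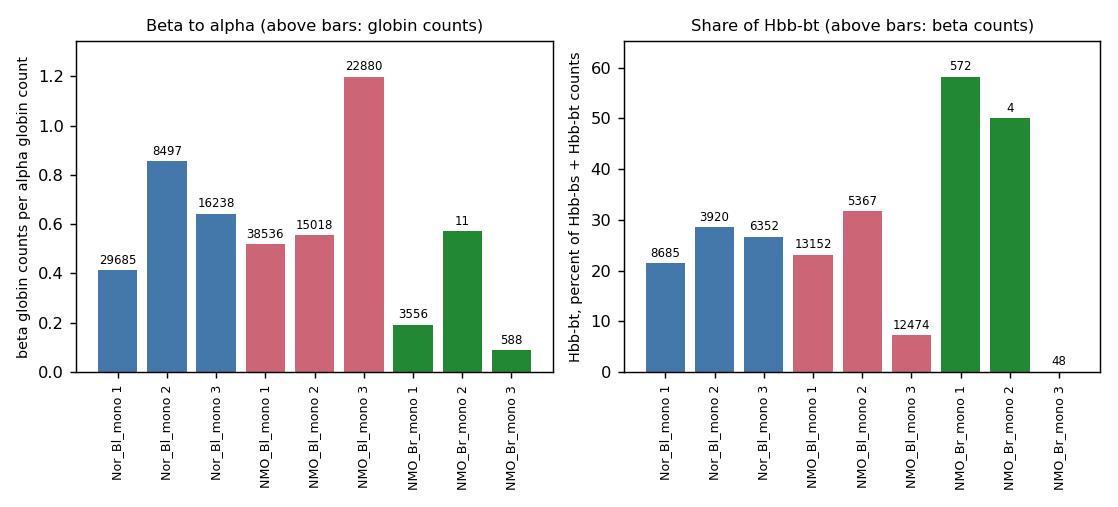
Left, beta globin counts (Hbb-bs and Hbb-bt) per alpha globin count (Hba-a1 and Hba-a2) in each library, with the number of globin counts above each bar. Right, the percent of beta counts that were Hbb-bt, with the number of beta counts above each bar. Brain libraries 1 and 3 have the lowest beta per alpha, 0.192 and 0.0889, and their Hbb-bt shares of 58.2% and 0% lie on either side of the blood libraries.

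Other genes of the red cell program were taken from lists and are given for NMO_Br_mono against NMO_Bl_mono unless another group is named. A gene that passed the filter on its blood counts alone had to be lower in brain. Apart from the member Slc4a1, genes named here that did not pass the filter were chosen after their values were seen. They were Hbb-y, Hbb-bh1, Hbb-bh2, Hba-x, Hbq1b, Klf1, Epor, Gfi1b and the membrane genes without a fitted value. Among 12 globin chain symbols, 6 passed the filter, and all were lower in brain than in NMO_Bl_mono (median log2 fold change -5.35, against 0.05 over all genes). All 6 passed the unadjusted threshold (3.84% of all genes) and 1, the duplicate entry Hbb-b1, the adjusted one (0.228%). Among the 6, Hbb-b1 and Hbb-b2 nearly repeat the counts of Hbb-bs and Hbb-bt, and Hba-a2 was at 0 in brain. The embryonic beta-type chains Hbb-y, Hbb-bh1 and Hbb-bh2 had no counts in any blood library. The alpha-type symbols Hba-x and Hbq1b had 2 and 18 counts in Nor_Bl_mono 1 and none elsewhere.

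Haem synthesis is a pathway that all cells use for their cytochromes. Of its 11 genes tested 6 were higher and 5 lower in brain, with a median of 0.64, and 0 passed the adjusted threshold. Of the 11, 3 were at or under the floor in brain and so had to be lower. The unadjusted threshold was passed by 1 of these 3 and by no other (3.84% of all genes were lower by it). Alas1, the enzyme that starts haem synthesis outside the red cell lineage, was present in brain at 65.4, 8.04 and 78.3 CPM, where Alas2 was at 0.

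Of 18 genes of the red cell membrane and skeleton, 11 had a count in some library. Only 3 of 18 passed the filter (Epb4.1, Gypc and Tmod1), with a median of -1.28 and 0 past either threshold. Against Nor_Bl_mono the median of the same 3 was 2.51, with 0 past the adjusted threshold. At the unadjusted one 1 was higher (Gypc, at 0 in all Nor_Bl_mono libraries, against 1.75% of all genes) and 1 lower (Epb4.1, against 4.07%). Kel, Ermap, Rhd, Icam4, Add2 and Epb4.2 were at 0 in all 6 blood libraries. Others that did not pass the filter had counts in some blood libraries. Slc4a1 had 82 and 70 counts in NMO_Bl_mono 1 and 2, and Sptb had 83 in Nor_Bl_mono 2 and 28 in NMO_Bl_mono 1. Xk had 8 and 57 in Nor_Bl_mono 1 and 3 and 15 in NMO_Bl_mono 1. Aqp1 had 8 in Nor_Bl_mono 1 and 56 in NMO_Bl_mono 1. Epb4.1, a skeletal protein also made in white cells, stood at 337, 159 and 99.4 CPM in NMO_Bl_mono and 87.3, 75.6 and 81.7 in NMO_Br_mono (log2 fold change -1.28, edgeR adjusted p 0.802).

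Erythroid regulators, a list of transcription factors, their partners and the receptor Epor, were at low levels. All 7 tested were lower in brain (median -1.93), with 0 past the adjusted threshold (0.228% of all genes) and 1, Zfpm1, past the unadjusted one (3.84%). Of these 7, 3 (Gata1, Bcl11a and Zfpm1) were at or under the floor in brain and so had to be lower. Gata1, the master factor of the lineage and also of megakaryocytes, had 4.15, 12.4 and 0 CPM in Nor_Bl_mono, 7.24, 0 and 0 CPM in NMO_Bl_mono and 0 in brain. Klf1, which activates the adult beta gene, stood at 38.2 CPM in Nor_Bl_mono 3 and was at 0 in the other 5 blood libraries, with 1 count in brain. Epor, the erythropoietin receptor, and Gfi1b were at 0 in all blood libraries. The regulators as a list were at 0 in NMO_Bl_mono 3, the library with 2068 CPM of globin.

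Among 7 genes of red cell metabolism, 2 were higher and 5 lower (median -0.75), and 2, Bpgm and Hagh, passed the unadjusted threshold (3.84% of all genes). Both were at 0 in every brain library and so had to be lower. Prdx2, an antioxidant protein abundant in red cells and present in other cells, stood at 69.9, 50.2 and 51.8 CPM in NMO_Bl_mono and 43.7, 54.4 and 61.4 in brain, a log2 fold change of -0.11 (edgeR adjusted p 1). Of 12 transcripts that reticulocytes retain, 6 were higher and 6 lower (median -0.52). Of the 12, 2 were at or under the floor in brain and so had to be lower, and 2 were lower at the unadjusted threshold. Bnip3l, which clears mitochondria from reticulocytes and acts in other cells too, was past the unadjusted threshold, at 104, 177 and 202 CPM in NMO_Bl_mono and 29.7, 23.9 and 95.1 in brain (log2 fold change -1.70, edgeR adjusted p 0.802). The 4 iron uptake genes tested were split 2 and 2 (median 0.16).

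Genes that clear haemoglobin and haem, which macrophages use after they engulf red cells, went both ways, with more of them higher in brain. Of 9 tested 6 were higher in brain and 3 lower (median 1.14). Of the 9, 0 passed the adjusted threshold and 2 were higher at the unadjusted one, against 1.48% of all genes. These were the ferritin chains Fth1 and Ftl1, which store the iron released from haem. Fth1 stood at 1939, 2222 and 995 CPM in NMO_Bl_mono and 3165, 4506 and 3069 in NMO_Br_mono (log2 fold change 1.06, SE 0.32, edgeR adjusted p 0.497). Hmox1 (haem oxygenase), which breaks haem down, had 23.0, 6.06 and 0 CPM in NMO_Bl_mono against 75.8, 17.1 and 59.1 in brain, and these groups overlapped (edgeR adjusted p 1). Hp, of the same list, was lower in every brain library. It had 264, 203 and 257 CPM in NMO_Bl_mono and 147, 3.88 and 56.9 in NMO_Br_mono (log2 fold change -1.80, SE 0.91, edgeR adjusted p 0.802).

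**Figure D4:**
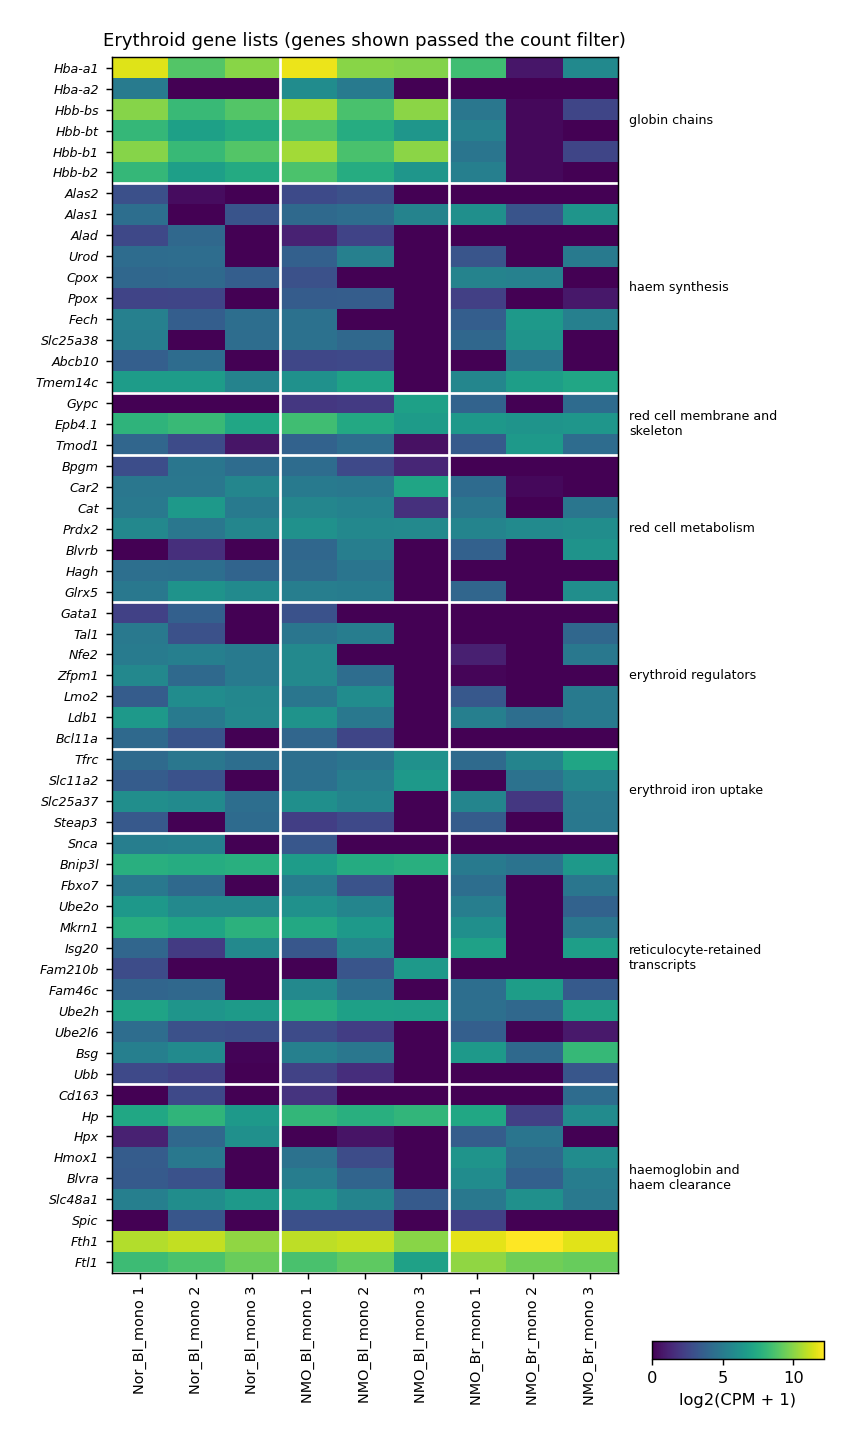
Levels of genes of 8 erythroid lists that passed the count filter, as log2(CPM + 1) by colour, with genes in rows and the 9 libraries in columns (not every gene that passed is drawn). The rows of Hba-a1, Hbb-bs and Hbb-bt and the duplicate rows Hbb-b1 and Hbb-b2 darken in the 3 brain columns, most of all in NMO_Br_mono 2, and NMO_Bl_mono 3 has dark cells in most lists while its globin rows stay bright.

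Markers of several other cells differed between tissues, some in the direction of the globins and some in the opposite one, and their part in these results was not tested. Platelet markers summed to 562 to 3377 CPM in Nor_Bl_mono, 626 to 2854 in NMO_Bl_mono and 0 to 39.6 in NMO_Br_mono. All 11 tested were lower in brain, 9 at the unadjusted threshold (3.84% of all genes) and 2 at the adjusted one (0.228%), but 8 of the 11 were at or under the floor in brain and so had to be lower. The defining genes Gp9, Gp1ba, Tubb1, Treml1, Gp5 and Gp6 were at 0 in brain, whereas Pf4 had 22.5 CPM and Gp1bb 10.6 CPM in NMO_Br_mono 1 and Itga2b had 39.0 CPM in NMO_Br_mono 2. Within blood, the same library of each group stood highest for platelet markers and for globins, 3377 CPM in Nor_Bl_mono 1 and 2854 CPM in NMO_Bl_mono 1.

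Markers of natural killer cells summed to 2228 to 3632 CPM in blood and 21.1 to 335 CPM in brain. All 8 were lower than in NMO_Bl_mono, 5 at the unadjusted threshold (3.84% of all genes) and 2 at the adjusted one (0.228%). Of the 8, 1 was at or under the floor in brain and so had to be lower. T cell markers summed to 31.7 to 147 CPM in blood and 0 to 22.9 CPM in brain. B cell markers overlapped, at 0.0904 to 142 CPM in blood and 10.6 to 45.0 CPM in brain. Endothelial markers ran from 5.59 to 115 CPM in blood and from 114 to 1192 CPM in brain. Microglia and neutrophil markers were higher in brain. Microglia markers summed to 179 to 569 CPM there, against 0 to 70.8 CPM in blood where Tmem119, Olfml3, Gpr34 and Fcrls were at 0. Neutrophil markers summed to 380 to 1746 CPM against 61.5 to 267 CPM, with Retnlg and Mmp9 at 0 in brain. Monocyte markers did not separate the tissues by their sum, at 6198 to 7773, 4282 to 7493 and 4132 to 7996 CPM in the order of the groups above.

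**Figure D5:**
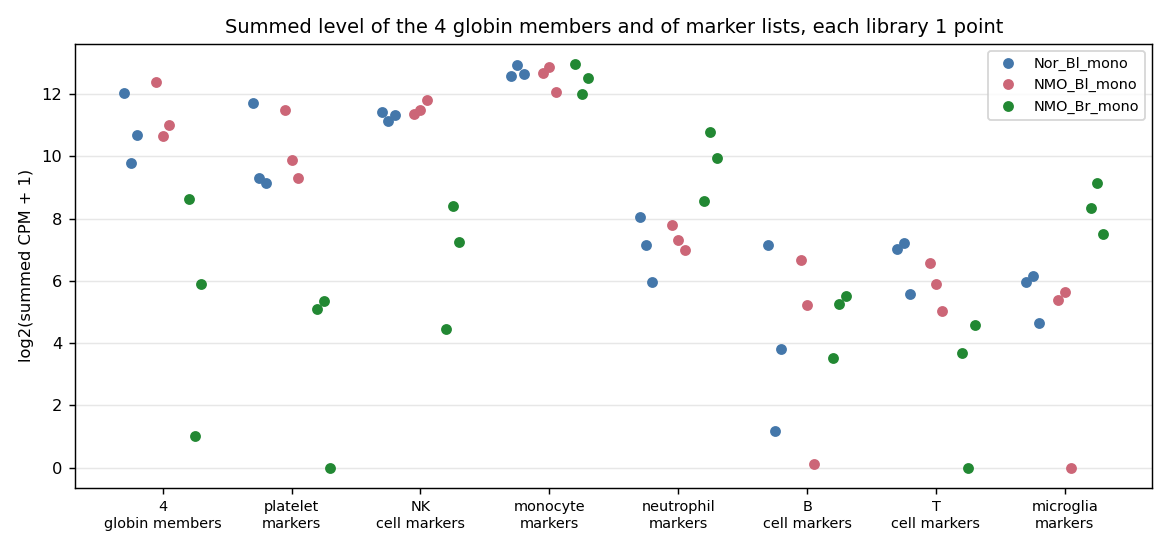
Summed level of the 4 globin genes and of the marker lists of 7 cell types as log2(summed CPM + 1), each point 1 library. Globin, platelet and natural killer cell sums are lower in all 3 brain libraries, microglia and neutrophil sums are higher, and monocyte sums overlap.

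The genes whose levels followed the globin sum most closely over the 9 libraries were sought among 5577 genes with a mean of at least 20 CPM. Atp2a3, a calcium pump of blood cells and platelets, had the highest Pearson correlation on the log2 scale (0.976), with 84.3 to 242 CPM in the 6 blood libraries and 14.4, 0 and 9.50 CPM in brain. It was followed by Nhsl2 (0.972), Rbpms (0.965), Srp68 (0.964) and Klrk1 (0.964), a receptor of natural killer cells. Mau2, Bag6, Fam133b, Tmem259 and Wdr37 completed the first 10, down to 0.951. None of these 10 was in the erythroid lists. The points share the split between tissues, and within the 6 blood libraries the correlation was 0.863 for Atp2a3, 0.600 for Klrk1, 0.0732 for Nhsl2 and -0.685 for Wdr37.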

How the data were processed

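RNA of sorted monocytes was sequenced from QuantSeq 3ʹ libraries. Single-end reads had been mapped to mm10 by Bowtie2, per the submitters' processing notes, and the authors counted unique and multiple alignments with bedtools. They deposited raw read counts per gene symbol. Versions and the annotation behind the counts are not given in the sources used here. The deposited counts precede their TMM and CPM step.

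Each library listed 23282 entries. Where a symbol was repeated (35 symbols), its entry of highest count was used, leaving 23238 symbols, and 10107 passed edgeR's filterByExpr. Counts were tested in R 4.3.3 with edgeR 4.0.16 (glmQLFit, glmQLFTest, TMM) in a single fit of all 9 libraries, with Benjamini-Hochberg adjustment over all genes tested. CPM used TMM-scaled library sizes. Exact permutation tests of log2(CPM + 1) were two-sided. The fitting code was tested on simulated data. Sequences and positions came from GENCODE M21 (GRCm38).

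The members and lists were chosen with earlier results of these data known. The named genes were the members, genes of the lists, and the 10 genes of highest correlation with the globin sum. The alternatives were RLE factors, library sizes alone, Rn45s or globins left out of the library size, other filters, a fit of the compared groups alone, a replicate block, each library left out, a robust fit, DESeq2 1.42.0, limma-voom (limma 3.58.1) with quality weights, summed globin copies, summed repeated symbols and a pseudocount of 0.1. Leaving out Hbb-b1 and Hbb-b2, and leaving out NMO_Bl_mono 3 and NMO_Br_mono 2, were added after seeing the data. Intervals by counting error were not computed, since reads without molecular identifiers are not independent molecules. Replicates are separate pools of mice, per the study's methods. No 2 libraries of a group agreed within sampling noise. Ahsp was not analysed here, and results of some list genes are not reported here.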

Additional observations from a re-analysis of the deposited data

How the results depend on the processing

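Hba-a2, Alas2, Slc4a1 and Bpgm were at 0 in every brain library, so no alternative could make them higher in brain. Hba-a1, Hbb-bs and Hbb-bt, which had brain counts, did not change direction between brain and blood in any alternative run. The number of members past the thresholds depended on the processing. Members called at an adjusted p under 0.05 numbered 0 for NMO_Br_mono against NMO_Bl_mono, 0 against Nor_Bl_mono and 1 against both blood groups. Against NMO_Bl_mono the count was 1 with RLE factors. With library sizes alone it was 1 against NMO_Bl_mono and 1 against Nor_Bl_mono. With no filter it was 3 in each of the 3 comparisons (Hba-a1, Hbb-bs and Hbb-bt). DESeq2 called 3, 3 and 4. Leaving out both libraries with few genes, chosen after seeing the data, gave 1 and 1 against the single blood groups. The robust fit, limma-voom and summed globin copies gave 0 against both blood groups. With each library left out in turn the counts ranged from 0 to 2 in all 3 comparisons. Called genes over the whole table moved as widely, from 23 lower genes against NMO_Bl_mono to 71 with no filter and 259 with DESeq2, against 7 with limma-voom. The cause of these differences was not tested.

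At the unadjusted threshold 5 members were lower in each comparison of brain with blood. The count was 3 in both comparisons with 1 blood group when only the groups compared were fitted. It was 3 in all 3 comparisons with the robust fit and with summed globin copies (of 4 entries), 3 with limma-voom against both blood groups and 1 against Nor_Bl_mono, and 3 against Nor_Bl_mono without the 2 libraries with few genes. With each library left out it ranged from 2 to 5 against NMO_Bl_mono, 3 to 5 against Nor_Bl_mono and 3 to 5 against both. No member passed either threshold between the blood groups in any alternative. There, Hba-a1 ranged from -0.61 to 1.29 and Hbb-bt from -0.48 to 0.71 on the log2 scale with each library left out.

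Whether the replicate numbers pair the libraries was not settled. The deviations of same-numbered libraries correlated at -0.0102 to 0.116 over 9 pairs, with 1 above 0.1. Those of differently numbered libraries correlated at -0.0956 to 0.0301 over 18 pairs, with 0 above 0.1. In every group the globin sum was highest in replicate number 1 and lowest in number 2. With the number as a replicate block, 1 member (Hbb-bs) was called against NMO_Bl_mono (adjusted p 0.00283) and 1 against Nor_Bl_mono, 3 were past the unadjusted threshold against NMO_Bl_mono and 3 against both, and Hbb-bt between the blood groups turned to -0.17.

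Requiring 10 or more counts in all libraries left no member to test. A pseudocount of 0.1 left every permutation p as it was. The brain libraries held 3556, 11 and 588 globin counts, so levels and ratios in NMO_Br_mono 2 rest on few reads.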
